A study of Drosophila melanogaster with 12 samples.

Results

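The DIP, dpr, beat and side genes of Drosophila melanogaster encode cell surface proteins of the immunoglobulin superfamily. They were followed here in RNA from whole embryos of 4 genotypes. Members were all genes whose symbol begins with DIP- (11 genes), dpr and a number (21 genes), beat- (14 genes) or side (8 genes), which gave 54 of the 17868 genes counted, each of them protein-coding. Of these, 28 were detected, meaning a mean of at least 1 CPM (a gene's read count scaled to a common library size, so that 1 CPM is 60.1 to 95.7 reads here) in at least 1 genotype, and 26 were not.

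The Dpr proteins (defective proboscis extension response) and the DIPs (Dpr-interacting proteins) bind each other across cells in selective pairs. In the nervous system of the fly they are known for matching synaptic partners, for the survival of neurons and for wiring in the optic lobe and at the neuromuscular junction. The Beat proteins (named for beaten path) and the Side proteins (named for sidestep) form a comparable network. In it, Side on the surface of target cells attracts motor axons that carry its receptor Beat-Ia.

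The genotypes were Drp1SG with SOD2i (the double genotype from here on), Drp1SG, SOD2i and Control, with 3 biological replicates each. Drp1 encodes a GTPase needed for mitochondrial fission, and Sod2 encodes the enzyme that clears superoxide inside mitochondria. What SG stands for is not spelled out in the labels, and SOD2i is taken to mean RNA interference of Sod2. The labels give no driver, promoter or strain, so where a transgene acted, and what the Control embryos shared with the others, is unknown here. Each replicate was a pool of several hand-sorted collections, balanced between embryos forming cells and embryos in gastrulation, stages at which neurons have not yet differentiated. Embryos were collected over longer or shorter windows depending on egg laying, and the labels do not tie a window to a genotype, so window and genotype cannot be told apart. RNA came from whole embryos, so fewer cells that express a gene and less RNA per cell cannot be told apart either.

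The libraries held 61757756 to 91949037 reads in genes, so that 1 CPM stood for 60.1 to 95.7 reads. Sod2 was at 2.51 to 3.54 CPM in the double genotype, 46.7 to 53.5 CPM in Drp1SG, 1.38 to 2.34 CPM in SOD2i and 50.3 to 51.6 CPM in Control. Drp1 was at 42.9 to 44.2, 71.0 to 104 and 18.6 to 24.1 CPM in the same 3 mutant genotypes, and at 34.2 to 38.8 CPM in Control. The stage markers slam and twi were present throughout, with genotype means of 977 to 1887 CPM for slam and 151 to 196 CPM for twi. SOD2i replicate 3 stood apart for DIP-beta and dpr1, and results that rest on it are given with and without it. The summed level of the blastoderm and ventral furrow markers ranged from 1614 CPM in Control replicate 3 to 2868 CPM in Control replicate 1. Over the Control libraries slam ranged from 827 to 2047 CPM and twi from 175 to 185 CPM, so this spread was largely that of slam. The part of this spread in the results below was not tested.

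A few genes supplied most of the reads. Averaged over the genotypes, side-V (25.5%), beat-IIIc (24.9%), dpr2 (12.1%) and DIP-lambda (8.66%) together made up 71.1% of the summed CPM of all 54 genes. That sum was 335 to 387 CPM in the double genotype, 348 to 366 CPM in Drp1SG, 348 to 429 CPM in SOD2i and 299 to 351 CPM in Control. Divided by exon length, beat-IIIc ranked first, with genotype means of 18.4 to 30.4 CPM per kilobase, ahead of side-V (14.0 to 17.8), dpr2 (12.95 to 16.0), DIP-lambda (11.3 to 13.4) and dpr21 (7.98 to 13.5). The families differed in how many genes were detected: 6 of 8 side genes, 13 of 21 dpr genes, 6 of 11 DIP genes and 3 of 14 beat genes. For comparison, 55.3% of the 13968 protein-coding genes met the same rule, against 51.9% of the 54.

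By genotype, 19 genes were detected in the double genotype, 19 in Drp1SG, 21 in SOD2i and 20 in Control. Detection was shared by all 4 genotypes for 15 genes. These were DIP-alpha, DIP-epsilon and DIP-lambda, then dpr2, dpr6, dpr7, dpr16, dpr17, dpr19 and dpr21, then beat-IIIc, side, side-III, side-V and side-VII. The other 13 passed in 1 to 3 genotypes. DIP-theta, side-VIII, dpr4, dpr14 and dpr20 passed in Control, beat-Ib in the double genotype, side-IV in Drp1SG and dpr1 in SOD2i. DIP-eta and beat-Vc passed in the double genotype and SOD2i, dpr3 and dpr8 in Drp1SG and SOD2i, and DIP-beta in all 3 mutant genotypes. This count describes a threshold and is no test of a difference. Just above the threshold were side-IV (1.02 CPM in Drp1SG), dpr4 (1.02 CPM in Control) and dpr20 (1.08 CPM in Control). Just below it were DIP-gamma (0.993 CPM in Drp1SG), dpr18 (0.719 CPM in the double genotype) and beat-VII (0.686 CPM in Drp1SG).

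**Figure D1:**
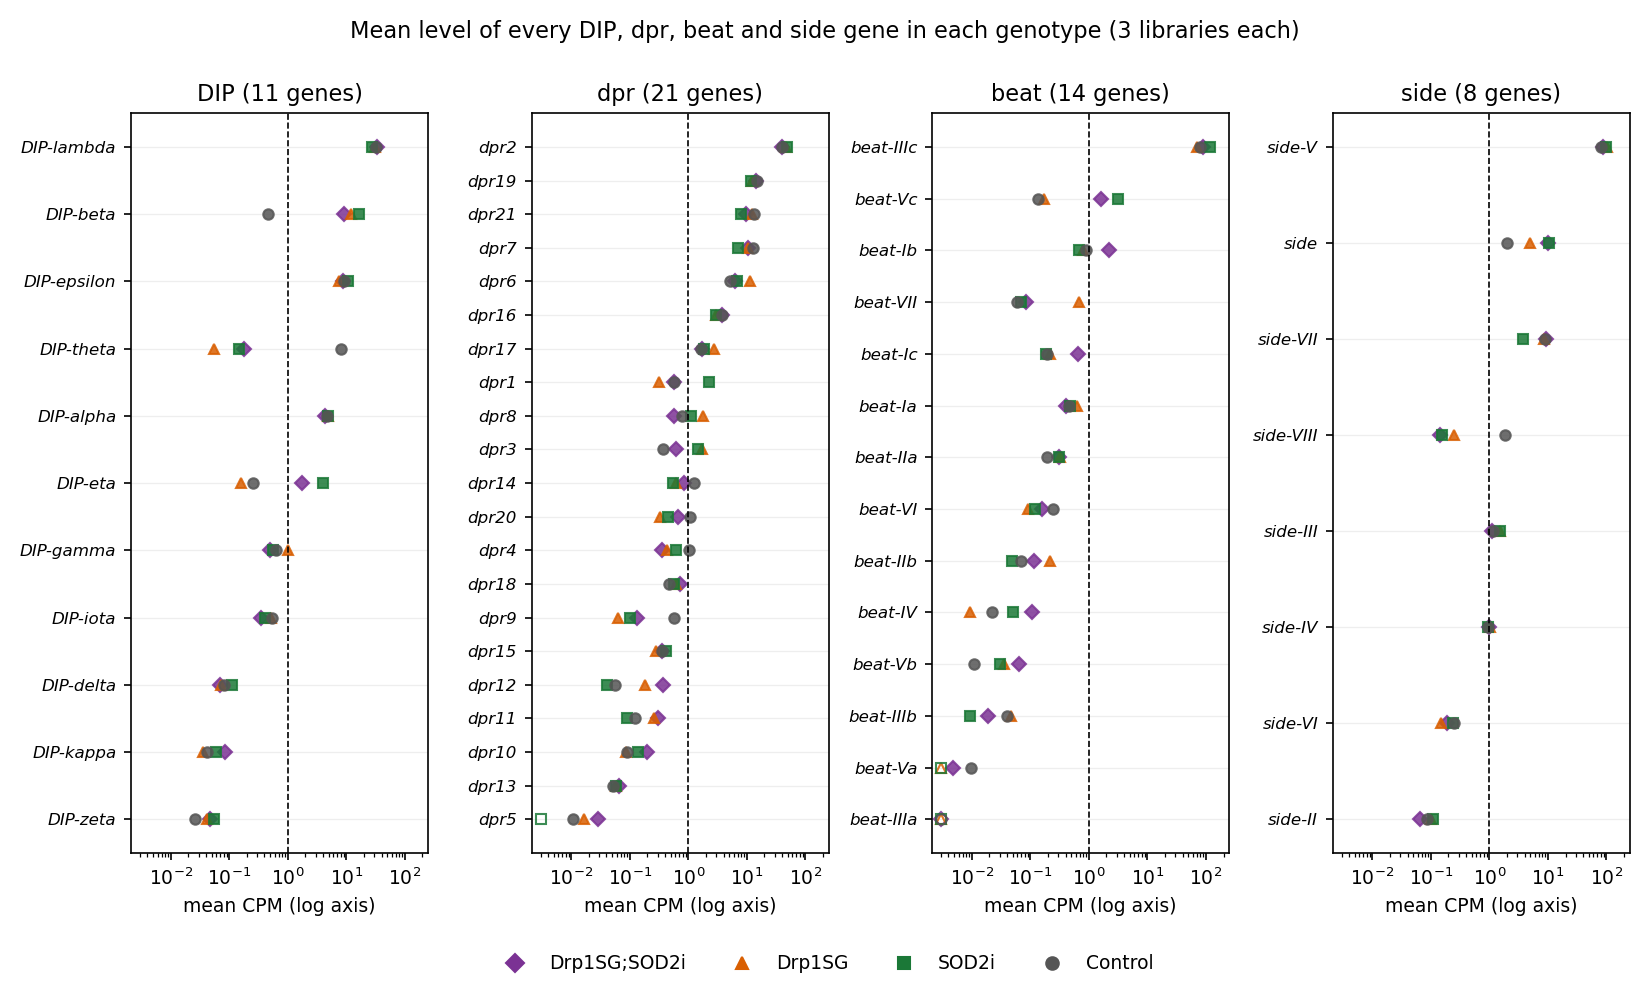
Mean CPM of each gene on a log axis in the 4 genotypes (3 libraries each), with a panel per family and genes ordered by their highest genotype mean; the dashed line marks 1 CPM and open symbols at the left edge mark a mean of 0. The symbols of a gene mostly lie close together, and those of DIP-theta, side-VIII, DIP-beta, DIP-eta and beat-Vc are spread widest.

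The undetected genes were named by family as follows. Of the DIPs they were DIP-gamma, DIP-iota, DIP-delta, DIP-kappa and DIP-zeta. Of the dprs they were dpr5, dpr9, dpr10, dpr11, dpr12, dpr13, dpr15 and dpr18. Of the beats they were beat-Ia, beat-Ic, beat-IIa, beat-IIb, beat-IIIa, beat-IIIb, beat-IV, beat-Va, beat-Vb, beat-VI and beat-VII, and of the sides side-II and side-VI. Their highest genotype means ran up to 0.993 CPM. Only beat-IIIa had no read in any library, and in a later annotation its exons lie wholly within another gene of the same strand. A listed 0 is not taken as absence, because 2466 of the 13968 protein-coding genes were at 0 in all 12 libraries, among them Kr and nullo, which are known to be strongly expressed in the early embryo. How the listed zeros came about is not stated.

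A gene was called where the adjusted p of edgeR's quasi-likelihood test was under 0.05. The test covered 42 of the 54 genes (8 DIP, 19 dpr, 8 beat and 7 side) among 9863 genes that passed the filter on low counts. Of the 42, 8 reached the filter level of 0.145 CPM in fewer than 4 genotypes, namely DIP-theta, dpr9, dpr10, dpr11, dpr12, beat-Vc, beat-VI and beat-VII. A gene that enters a test through the genotype where it is high is more likely to show a difference, although dpr10 and beat-VI were called in no comparison. The counts below therefore describe and support nothing.

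Against Control, 10 of the 42 genes were called in the double genotype (5 higher and 5 lower), where 8.91% of all tested genes were called (4.62% higher and 4.29% lower). In Drp1SG 12 were called (6 higher and 6 lower), beside 18.6% of all genes (9.72% higher and 8.83% lower). In SOD2i 15 were called (7 higher and 8 lower), beside 23.2% of all genes (10.3% higher and 12.8% lower). As shares of the 42 these are 23.8%, 28.6% and 35.7%. The median size of the log2 fold change over the 42 was 0.50, 0.57 and 0.44 in the same order, and 0.20, 0.23 and 0.24 over all tested genes. The libraries of mutant and Control embryos did not overlap for 17 of the 42 genes in each comparison, beside 30.2%, 38.5% and 34.1% of all tested genes in the double genotype, Drp1SG and SOD2i. The 3 comparisons share the Control libraries, so their values are given side by side and not as separate evidence.

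DIP-theta (Dmel_CG31646), a member of the Dpr-binding family, was the gene that differed most from Control. It was at 0.144, 0.344 and 0.0533 CPM in the double genotype, 0.0701, 0.0418 and 0.0551 CPM in Drp1SG and 0.0606, 0.2497 and 0.126 CPM in SOD2i, against 8.40, 5.58 and 10.4 CPM in Control. The lowest Control library lay far above the highest mutant library, and the Drp1SG libraries held only 4 or 5 reads each. The log2 fold changes were -5.49 ± 0.51 in the double genotype (adjusted p = 4.66e-05), -7.17 ± 0.58 in Drp1SG (adjusted p = 1.06e-05) and -5.79 ± 0.52 in SOD2i (adjusted p = 1.60e-05), each by edgeR and with a standard error. Each of these calls held under every alternative run. DIP-theta reached the filter level of 0.145 CPM in only 2 genotypes, and the alternatives reused the same libraries, so this adds no separate support. In a later annotation 12.6% of the exon bases of DIP-theta are shared with a long non-coding RNA on the same strand.

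side-VIII (Dmel_CG12484), of the family of Beat ligands, was lower than Control in the same 3 genotypes. It stood at 0.159, 0.115 and 0.160 CPM in the double genotype, 0.337, 0.251 and 0.165 CPM in Drp1SG and 0.106, 0.156 and 0.211 CPM in SOD2i, against 1.97, 2.11 and 1.40 CPM in Control. No mutant library reached the lowest Control library. On the log2 scale the changes were -3.64 ± 0.34, -2.86 ± 0.32 and -3.51 ± 0.34 in that order, with adjusted p of 4.87e-05, 1.24e-04 and 2.52e-05 (edgeR).

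dpr9 (Dmel_CG33485), whose product is known to bind DIP-beta among others, was below 1 CPM throughout and lower than Control in the 3 mutant genotypes. Its values were 0.0867, 0.200 and 0.107 CPM in the double genotype, 0.0281, 0.0209 and 0.138 CPM in Drp1SG and 0.0910, 0.140 and 0.0702 CPM in SOD2i, against 0.571, 0.487 and 0.649 CPM in Control. The groups did not overlap, at 2 to 14 reads per mutant library and 33 to 39 reads per Control library. Only in Control did the mean of dpr9 reach the filter level of 0.145 CPM, so it entered the test through the genotype where it was high. Its test values describe the difference and are no separate support for it. The log2 fold changes were -2.10 ± 0.53 (adjusted p = 0.0307), -3.21 ± 0.58 (adjusted p = 0.00318) and -2.49 ± 0.55 (adjusted p = 0.00719, edgeR). The call in the double genotype was lost without any 1 of the Control libraries, without double replicate 1 or 3, with the replicate block and with no filter, with adjusted p of up to 0.123.

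side (Dmel_CG31062), the founding member whose product on target cells attracts motor axons, was the one gene called higher in each of the 3 comparisons. Its levels were 10.1, 7.79 and 12.7 CPM in the double genotype, 7.18, 4.21 and 3.55 CPM in Drp1SG and 10.2, 11.8 and 9.53 CPM in SOD2i, against 1.85, 1.86 and 2.38 CPM in Control. Every mutant library was above every Control library, and Drp1SG lay between Control and the other 2 genotypes. The log2 fold change was 2.32 ± 0.27 in the double genotype (adjusted p = 2.47e-04), 1.29 ± 0.26 in Drp1SG (adjusted p = 0.00571) and 2.37 ± 0.27 in SOD2i (adjusted p = 8.20e-05, edgeR). The double genotype was also higher than Drp1SG (1.03 ± 0.25, adjusted p = 0.0232), a call lost without Drp1SG replicate 2 or 3 or double replicate 1 or 3 (adjusted p of up to 0.0930).

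DIP-eta (Dmel_CG14010) and beat-Vc (Dmel_CG14390) were higher in the genotypes with SOD2i than in those without it. DIP-eta was at 1.36, 2.06 and 1.84 CPM in the double genotype, 0.210, 0.220 and 0.0551 CPM in Drp1SG and 2.94, 4.76 and 4.08 CPM in SOD2i, against 0.158, 0.414 and 0.200 CPM in Control. beat-Vc, whose product belongs to the subfamily that binds Side-VI, was at 1.56, 1.40 and 1.91 CPM in the double genotype, 0.0842, 0.293 and 0.138 CPM in Drp1SG and 2.52, 3.71 and 3.14 CPM in SOD2i, against 0.0792, 0.192 and 0.133 CPM in Control. For both genes the libraries with SOD2i did not overlap those without it, and the SOD2i libraries lay above those of the double genotype.

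DIP-eta rose against Control in the double genotype (log2 fold change 2.75 ± 0.41, adjusted p = 0.00188) and in SOD2i (3.91 ± 0.42, adjusted p = 5.42e-05), and its difference in Drp1SG was -0.65 ± 0.48 (adjusted p = 0.383, edgeR). beat-Vc rose by 3.56 ± 0.40 in the double genotype (adjusted p = 2.13e-04) and by 4.51 ± 0.40 in SOD2i (adjusted p = 1.39e-05), and was at 0.38 ± 0.46 in Drp1SG (adjusted p = 0.608, edgeR). Within the genotypes that carry Drp1SG the change with SOD2i was also called, at 3.40 ± 0.43 for DIP-eta (adjusted p = 4.29e-04) and 3.18 ± 0.37 for beat-Vc (adjusted p = 2.54e-04). The difference between the changes in the Drp1SG and Control backgrounds was -0.51 ± 0.60 for DIP-eta (adjusted p = 0.639) and -1.33 ± 0.55 for beat-Vc (adjusted p = 0.132), neither of them called. DIP-eta and DIP-theta lie close together in the genome, with 3 genes between them, and in SOD2i and in the double genotype they differed from Control in opposite directions.

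**Figure D2:**
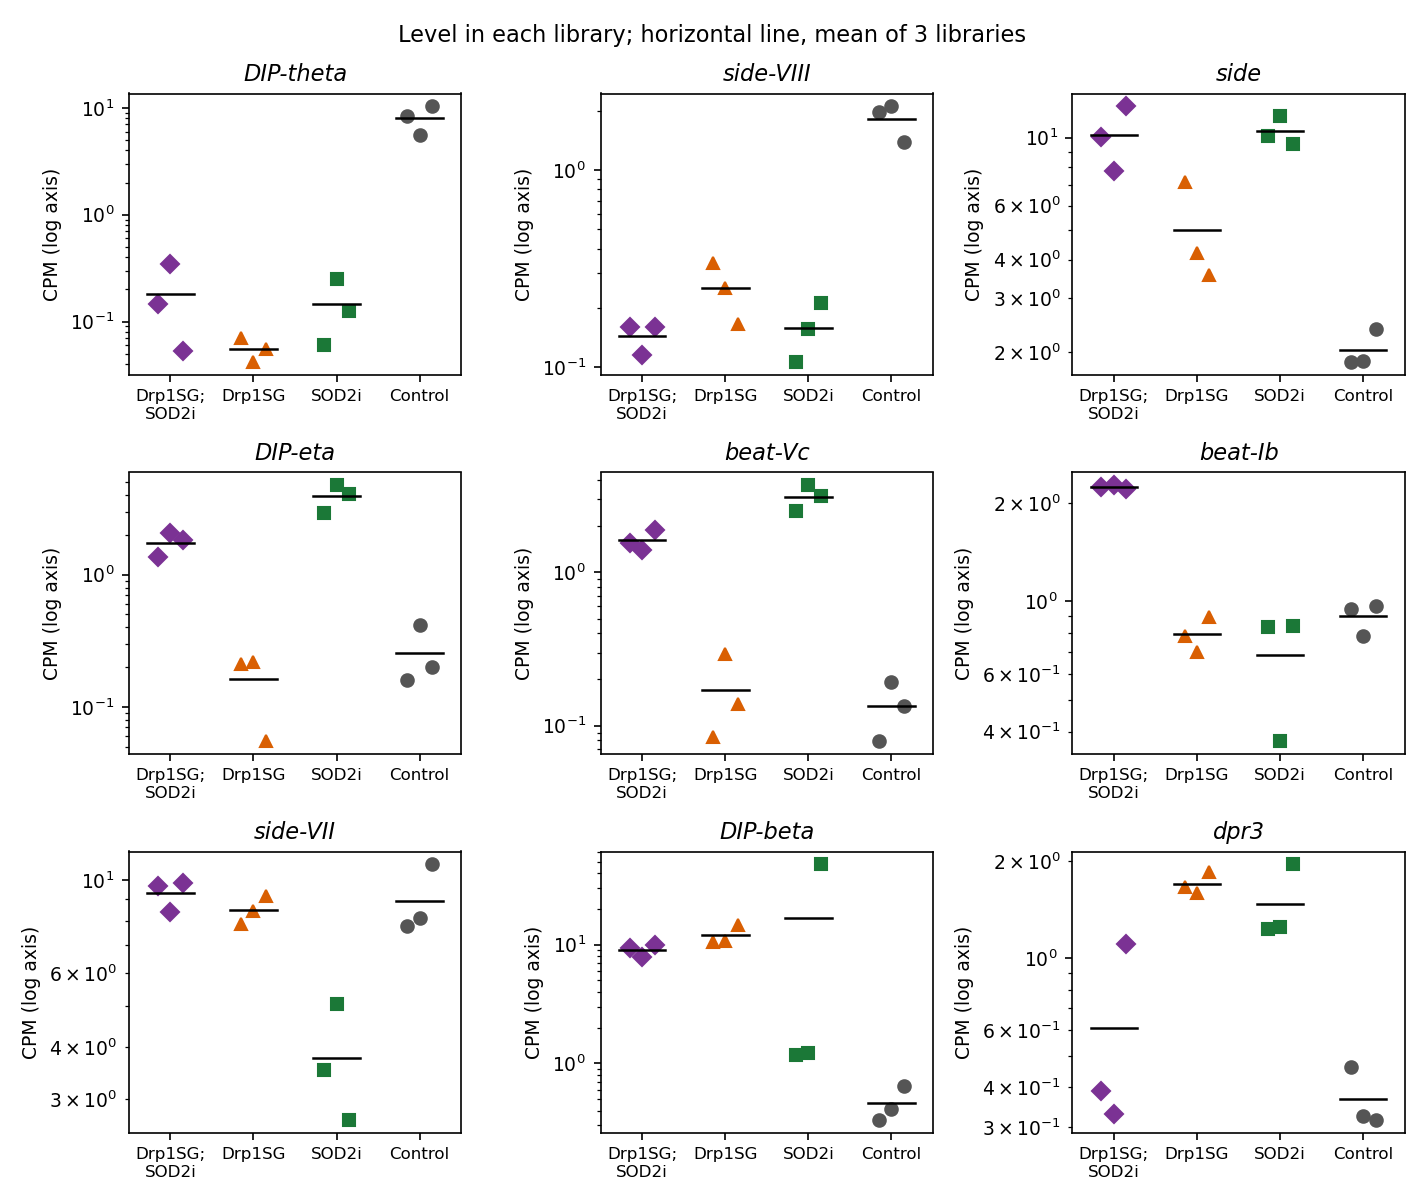
CPM per library on log axes for 9 genes, with the double genotype, Drp1SG, SOD2i and Control from left to right and a horizontal line at the mean of the 3 libraries. DIP-theta and side-VIII are high in Control alone, DIP-eta and beat-Vc in the 2 genotypes with SOD2i, and beat-Ib in the double genotype, while SOD2i replicate 3 lies far above the other SOD2i libraries for DIP-beta.

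DIP-beta (Dmel_CG42343), a DIP that binds several Dprs, was very uneven in SOD2i. It was at 9.42, 7.92 and 9.93 CPM in the double genotype, 10.5, 10.8 and 14.5 CPM in Drp1SG and 1.17, 1.23 and 47.7 CPM in SOD2i, against 0.333, 0.414 and 0.649 CPM in Control. All 9 mutant libraries lay above the Control libraries, and SOD2i replicate 3 held 3398 reads where replicates 1 and 2 held 77 and 79. The log2 fold changes by edgeR were 4.29 ± 1.24 in the double genotype (adjusted p = 0.0528, not called), 4.69 ± 1.25 in Drp1SG (adjusted p = 0.0229) and 5.17 ± 1.27 in SOD2i (adjusted p = 0.0124). Because the fit shares 1 estimate of the spread over the genotypes, this library weighed on all 3.

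Without SOD2i replicate 3, DIP-beta was called in each comparison, at 4.31 ± 0.24 in the double genotype (adjusted p = 3.71e-06), 4.70 ± 0.24 in Drp1SG (adjusted p = 2.49e-06) and 1.38 ± 0.26 in SOD2i (adjusted p = 0.00514, edgeR). The size of the SOD2i change thus depended on 1 library. Without that library the double genotype was higher than SOD2i by 2.93 ± 0.26 (adjusted p = 1.53e-04), and with it the difference was -0.88 ± 1.01 (adjusted p = 0.590). In the authors' deposited tables the adjusted p was 4.24e-62 for the double genotype and 2.81e-68 for Drp1SG, and none was given for SOD2i. In limma with voom on all libraries none of the 3 was called, with adjusted p of 0.155, 0.0824 and 0.233 in the same order. The Drp1SG call of edgeR was further lost without any 1 Control library or Drp1SG replicate 3, and the SOD2i call without Control replicate 2. In fits of only the 2 genotypes compared, DIP-beta had an adjusted p of 1.21e-04 in the double genotype, 1.41e-04 in Drp1SG and 0.0741 in SOD2i. The double genotype, just over the threshold with all libraries, was also called without SOD2i replicate 1 or 2 (adjusted p = 0.0252 and 0.0191), under upper-quartile scaling (0.0488), with no filter (0.0494) and with the replicate block (0.0410).

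Among the dprs, dpr3 (Dmel_CG33516) was higher in both single genotypes. It was at 0.390, 0.329 and 1.11 CPM in the double genotype, 1.66, 1.59 and 1.84 CPM in Drp1SG and 1.23, 1.25 and 1.95 CPM in SOD2i, against 0.460, 0.325 and 0.316 CPM in Control. The single genotypes did not overlap Control, and in the double genotype only replicate 3 lay above all Control libraries. Its log2 fold change was 0.73 ± 0.42 in the double genotype (adjusted p = 0.324), 2.203 ± 0.41 in Drp1SG (adjusted p = 0.00382) and 2.00 ± 0.41 in SOD2i (adjusted p = 0.00464, edgeR). The double genotype was lower than Drp1SG (-1.47 ± 0.39, adjusted p = 0.0332) and than SOD2i (-1.27 ± 0.39, adjusted p = 0.0415), but these calls were lost in 6 and 10 of the alternatives, among them leaving out double replicate 1 or 2 (adjusted p of up to 0.125 and 0.160).

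dpr8 and dpr17 rose in Drp1SG and were lower in the double genotype than in Drp1SG. dpr8 was at 0.506, 0.616 and 0.600 CPM in the double genotype, 1.46, 1.75 and 2.08 CPM in Drp1SG and 0.910, 1.05 and 1.33 CPM in SOD2i, against 1.08, 0.739 and 0.566 CPM in Control. Its log2 fold change in Drp1SG was 1.15 ± 0.25 (adjusted p = 0.00933), and the double genotype was lower than Drp1SG, at -1.61 ± 0.26 (adjusted p = 0.00225, edgeR). dpr17, a Dpr known to bind DIP-gamma, was at 2.01, 1.50 and 1.72 CPM in the double genotype, 3.07, 2.85 and 2.42 CPM in Drp1SG and 1.86, 1.97 and 1.66 CPM in SOD2i, against 1.57, 1.77 and 1.51 CPM in Control. All 3 Drp1SG libraries were above all others for both genes. The log2 fold change of dpr17 in Drp1SG was 0.78 ± 0.16 (adjusted p = 0.00646), and the double genotype differed from Drp1SG by -0.67 ± 0.16 (adjusted p = 0.0199, edgeR), a difference lost without Drp1SG replicate 1 or 2 or double replicate 2 or 3 (adjusted p of up to 0.0810).

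dpr1 (Dmel_CG13439) is the founding dpr gene, named for its part in the proboscis response to salt. It was called higher in SOD2i, but not without SOD2i replicate 3. It was at 0.361, 0.444 and 0.906 CPM in the double genotype, 0.365, 0.345 and 0.248 CPM in Drp1SG and 1.39, 1.17 and 4.34 CPM in SOD2i, against 0.317, 0.739 and 0.649 CPM in Control. Every SOD2i library lay above all others, with replicate 3 the highest, as for DIP-beta. The log2 fold change of 2.02 ± 0.53 (adjusted p = 0.0168, edgeR) became 1.18 and was not called without SOD2i replicate 3, and the call was also lost without Control replicate 1 or in a fit of the 2 genotypes alone (adjusted p of up to 0.0897). The call against the double genotype, -2.01 ± 0.52 (adjusted p = 0.0207), was lost without SOD2i replicate 3, at -1.15, and also without double replicate 1 or 2 or in a fit of the 2 genotypes alone (adjusted p of up to 0.105).

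Several dprs were lower than Control in mutant embryos. dpr14 averaged 0.859 ± 0.083 CPM in the double genotype, 0.623 ± 0.202 CPM in Drp1SG and 0.544 ± 0.098 CPM in SOD2i, against 1.23 ± 0.17 CPM in Control (SD, n = 3 each). Its log2 fold change was -0.99 ± 0.25 in Drp1SG (adjusted p = 0.0173) and -1.18 ± 0.25 in SOD2i (adjusted p = 0.00574, edgeR), and the Drp1SG call was lost without Control replicate 1 or Drp1SG replicate 2 or 3 (adjusted p of up to 0.0737). dpr20 averaged 0.678 ± 0.310 CPM in the double genotype, 0.331 ± 0.067 CPM in Drp1SG and 0.448 ± 0.036 CPM in SOD2i, against 1.08 ± 0.13 CPM in Control. It fell by 1.71 ± 0.32 on the log2 scale in Drp1SG (adjusted p = 0.00352) and by 1.27 ± 0.31 in SOD2i (adjusted p = 0.0124, edgeR). Neither gene was called in the double genotype, at -0.52 ± 0.25 for dpr14 and -0.67 ± 0.30 for dpr20 (adjusted p = 0.223 and 0.200).

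dpr4 was at 0.202, 0.587 and 0.293 CPM in the double genotype, 0.435, 0.376 and 0.496 CPM in Drp1SG and 0.697, 0.671 and 0.505 CPM in SOD2i, against 0.650, 1.12 and 1.28 CPM in Control. It was lower than Control in the double genotype (-1.49 ± 0.38, adjusted p = 0.0309) and in Drp1SG (-1.23 ± 0.37, adjusted p = 0.0388, edgeR). Both calls were fragile. Each was lost without Control replicate 2 or 3, the first also without double replicate 1 or 3 and the second without any 1 Drp1SG library (adjusted p of up to 0.117 and 0.131). In a later annotation an antisense RNA covers 15.7% of the exon bases of dpr4, and whether counting used strand is not stated.

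Among the more abundant dprs, dpr21 averaged 9.61 ± 0.52 CPM in the double genotype, 12.2 ± 0.3 CPM in Drp1SG and 7.92 ± 0.205 CPM in SOD2i, against 13.4 ± 2.0 CPM in Control. It was called lower in SOD2i (log2 fold change -0.76 ± 0.11, adjusted p = 5.79e-04) and in the double genotype (-0.48 ± 0.11, adjusted p = 0.0219, edgeR), the second call being lost without Control replicate 3 or double replicate 2 or 3 (adjusted p of up to 0.0863). dpr7 was at 9.39, 11.9 and 10.5 CPM in the double genotype, 10.8, 10.7 and 9.49 CPM in Drp1SG and 5.90, 9.05 and 6.56 CPM in SOD2i, against 12.2, 10.9 and 14.8 CPM in Control. It was called lower in SOD2i than in Control (-0.82 ± 0.17, adjusted p = 0.00503, edgeR). dpr6, a Dpr known to bind DIP-alpha and DIP-beta, varied widely within every genotype. Its levels were 7.74, 4.94 and 6.42 CPM in the double genotype, 7.24, 13.5 and 13.4 CPM in Drp1SG and 11.5, 4.45 and 4.62 CPM in SOD2i, against 7.62, 5.05 and 2.70 CPM in Control. edgeR did not call it in Drp1SG (1.15 ± 0.43, adjusted p = 0.0863), and the authors' deposited table gives an adjusted p of 0.0104 there.

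Of the side family, side-VII was lowest in SOD2i. It was at 9.68, 8.39 and 9.85 CPM in the double genotype, 7.87, 8.45 and 9.14 CPM in Drp1SG and 3.53, 5.07 and 2.68 CPM in SOD2i, against 7.77, 8.12 and 10.9 CPM in Control. All SOD2i libraries lay below all others. The log2 fold change against Control was -1.25 ± 0.21 (adjusted p = 0.00130), and the double genotype was higher than SOD2i by 1.31 ± 0.21 (adjusted p = 0.00178, edgeR). side-V, the most abundant gene of the 54 by CPM, was at 87.1, 74.8 and 95.7 CPM in the double genotype, 109, 103 and 94.7 CPM in Drp1SG and 87.1, 116 and 91.7 CPM in SOD2i, against 83.7, 74.3 and 83.1 CPM in Control. Its differences from Control were not called (0.10 ± 0.12, 0.35 ± 0.12 and 0.29 ± 0.12, adjusted p = 0.664, 0.0636 and 0.103, edgeR), while the authors' deposited table gives an adjusted p of 0.0118 in Drp1SG.

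Of the beat family, beat-IIIc (Dmel_CG15138) was the most abundant and was highest in SOD2i. It was at 86.6, 86.2 and 93.7 CPM in the double genotype, 73.5, 70.0 and 72.0 CPM in Drp1SG and 106, 128 and 122 CPM in SOD2i, against 80.3, 70.8 and 85.5 CPM in Control. Every SOD2i library was above every other library. In SOD2i against Control the log2 fold change was 0.59 ± 0.09 (adjusted p = 6.06e-04), and the double genotype was lower than SOD2i, at -0.42 ± 0.09 (adjusted p = 0.00779, edgeR). The double genotype was higher than Drp1SG by 0.31 ± 0.09 (adjusted p = 0.0462), a call lost in 11 alternatives, among them leaving out any 1 library of either genotype (adjusted p of up to 0.135).

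beat-Ib (Dmel_CG7644) was higher in the double genotype than in each of the other 3. It was at 2.24, 2.26 and 2.21 CPM in the double genotype, 0.786, 0.700 and 0.895 CPM in Drp1SG and 0.834, 0.374 and 0.842 CPM in SOD2i, against 0.951, 0.783 and 0.966 CPM in Control. The double genotype's libraries lay far above the rest and close to each other. The log2 fold change was 1.50 ± 0.26 against Drp1SG (adjusted p = 0.00358), 1.70 ± 0.26 against SOD2i (adjusted p = 0.00130) and 1.31 ± 0.26 against Control (adjusted p = 0.00890, edgeR), and these calls held under every alternative run. Neither single genotype differed from Control by a called amount.

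beat-Ic lies near beat-Ib, with 9 genes between them, and was also highest in the double genotype, at a level below 1 CPM. It was at 0.607, 0.831 and 0.520 CPM in the double genotype, 0.323, 0.188 and 0.138 CPM in Drp1SG and 0.152, 0.172 and 0.239 CPM in SOD2i, against 0.333, 0.103 and 0.133 CPM in Control. It rose against Drp1SG (1.59 ± 0.44, adjusted p = 0.0406), SOD2i (1.78 ± 0.46, adjusted p = 0.0189) and Control (1.77 ± 0.46, adjusted p = 0.0337, edgeR). Each call was lost without double replicate 2 and without some libraries of the genotype it was set against, with adjusted p of up to 0.147, 0.0620 and 0.126. Those against Drp1SG and Control were lost without any 1 library of the double genotype. Of 19 alternatives, 8 lost the call against Drp1SG, 3 that against SOD2i and 7 that against Control. beat-Ia, the motor axon receptor for Side, lies a further 9 genes along, and was not called in any comparison, at 0.280 to 0.487 CPM in the double genotype, 0.441 to 0.856 CPM in Drp1SG and 0.364 to 0.604 CPM in SOD2i, against 0.236 to 0.699 CPM in Control.

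beat-VII was highest in Drp1SG. It was at 0.116, 0.115 and 0.0266 CPM in the double genotype, 0.561, 0.491 and 1.00 CPM in Drp1SG and 0.0303, 0.125 and 0.0561 CPM in SOD2i, against 0.0158, 0.0295 and 0.133 CPM in Control. The Drp1SG libraries held 40 to 73 reads and no other library more than 8. Only in Drp1SG did its mean reach the filter level of 0.145 CPM, so beat-VII entered the test through the genotype where it was high. Its test values describe the difference and are no separate support for it. It differed from Control by 3.51 ± 0.69 on the log2 scale in Drp1SG (adjusted p = 0.00495), and the double genotype was lower than Drp1SG (-2.99 ± 0.65, adjusted p = 0.0125, edgeR), a difference lost without Drp1SG replicate 3 or double replicate 3 (adjusted p of up to 0.0587).

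**Figure D3:**
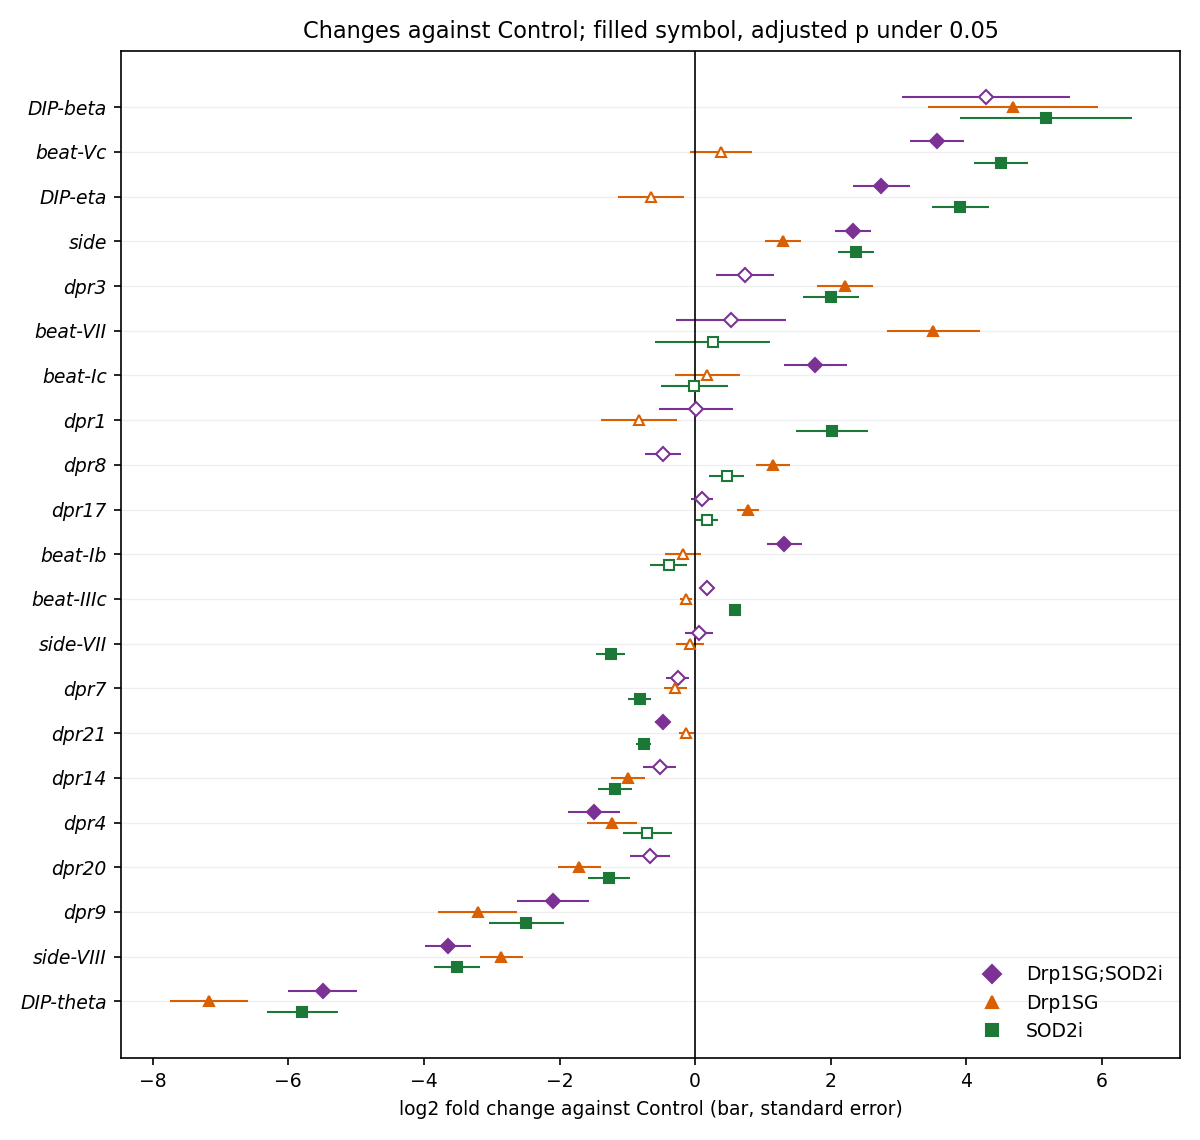
Log2 fold change against Control with its standard error for the 21 genes called in at least 1 of the 3 comparisons, with the double genotype, Drp1SG and SOD2i from top to bottom within each gene and filled symbols for an adjusted p under 0.05 (edgeR). DIP-theta, side-VIII and dpr9 lie to the left in each genotype and side to the right, and DIP-beta has the widest bars.

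The double genotype was then set against each single genotype. Drp1 and Sod2 themselves were not level in these comparisons. For Drp1 the log2 fold change over Drp1SG was -0.94 ± 0.14 (adjusted p = 0.00126, edgeR). For Sod2 that over SOD2i was 0.74 ± 0.17 (adjusted p = 0.0126, edgeR). Neither comparison therefore held the first change fixed, and what the second change alone added was not tested. Against Drp1SG 10 of the 42 genes were called (6 higher and 4 lower), beside 10.9% of all tested genes (5.05% higher and 5.82% lower). The higher ones were side, DIP-eta, beat-Vc, beat-Ib, beat-Ic and beat-IIIc, and the lower ones dpr3, dpr8, dpr17 and beat-VII. The count was 5 without Drp1SG replicate 2 or without double replicate 3, and 6 without Drp1SG replicate 3 or without double replicate 1. Against SOD2i 11 were called (6 higher and 5 lower), beside 19.3% of all genes (10.5% higher and 8.79% lower). The count was 4 without double replicate 2, 5 without double replicate 1 or SOD2i replicate 3, and 6 without double replicate 3. Libraries did not overlap for 17 genes against Drp1SG, beside 39.1% of all tested genes, and for 15 against SOD2i, beside 37.2%.

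Against SOD2i the higher genes were beat-Ib, beat-Ic, side-VII, dpr7, dpr11 and dpr12, and the lower ones beat-IIIc, DIP-eta, dpr1, dpr3 and dpr8. DIP-eta differed by -1.16 ± 0.35 (adjusted p = 0.0380) and dpr8 by -0.93 ± 0.26 (adjusted p = 0.0278, edgeR), and both calls were lost without any 1 library of the double genotype or without SOD2i replicate 2 or 3 (adjusted p of up to 0.133 and 0.118). dpr7 was higher by 0.56 ± 0.17 (adjusted p = 0.0392), a call lost in 7 alternatives, among them leaving out SOD2i replicate 1 or 3 or double replicate 2 or 3.

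dpr11, whose product binds DIP-gamma, and dpr12, whose product binds DIP-delta, were not detected at 1 CPM. Each reached the filter level of 0.145 CPM in only 2 genotypes, the double genotype and Drp1SG. dpr11 was at 0.318, 0.286 and 0.320 CPM in the double genotype and 0.121, 0.0312 and 0.112 CPM in SOD2i, a log2 fold change of 1.77 ± 0.52 (adjusted p = 0.0327, edgeR). dpr12 was at 0.289, 0.487 and 0.333 CPM in the double genotype, and at 0.0303, 0.0936 and 0 CPM in SOD2i, where 8 reads were counted in all (3.15 ± 0.88, adjusted p = 0.0276, edgeR). Both rested on few reads, and both calls were lost without any 1 library of the double genotype or without SOD2i replicate 3, the dpr11 call also without SOD2i replicate 2 or Drp1SG replicate 2, and the dpr12 call also without SOD2i replicate 1 (adjusted p of up to 0.101 and 0.0884). Against Control, the authors' deposited table gives dpr12 an adjusted p of 0.0297 in the double genotype, where edgeR gives 0.0660.

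Whether the change with SOD2i differed between the Drp1SG and Control backgrounds was tested as an interaction, the log2 fold change of the double genotype over Drp1SG minus that of SOD2i over Control. It was called for 14 of the 42 genes (8 higher and 6 lower), beside 16.5% of all tested genes (9.2% higher and 7.34% lower). The count was 9 without double replicate 2. Sod2 itself had an interaction of 0.78 ± 0.23 (adjusted p = 0.0414, edgeR), so its fall with SOD2i was smaller in the Drp1SG background. The background and the size of that fall therefore cannot be told apart in these values. Among the positive values were those of the genes that fell in each mutant genotype, DIP-theta (7.47 ± 0.86, adjusted p = 1.28e-04), dpr9 (3.59 ± 0.84, adjusted p = 0.0131) and side-VIII (2.73 ± 0.50, adjusted p = 0.00298, edgeR). These genes were already low in both single genotypes, at 4 or 5 reads of DIP-theta, 2 to 10 reads of dpr9 and 12 to 24 reads of side-VIII per Drp1SG library. This left little room for a second fall of the same size, so positive values were favoured in advance.

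dpr3 (-3.47 ± 0.57, adjusted p = 0.00159), dpr8 (-2.08 ± 0.36, adjusted p = 0.00236) and side (-1.34 ± 0.36, adjusted p = 0.0251, edgeR) had negative values, so that the double genotype was lower than the single changes would add up to. For side the call was lost without Control replicate 1 or 2 or double replicate 1 or 2 (adjusted p of up to 0.0553). side-VII (1.38 ± 0.29, adjusted p = 0.00752) fell with SOD2i in the Control background, and its change in the Drp1SG background was 0.13 ± 0.20 (adjusted p = 0.740, edgeR). beat-Ib, raised in the double genotype, had an interaction of 1.89 ± 0.37 (adjusted p = 0.00480, edgeR).

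**Figure D4:**
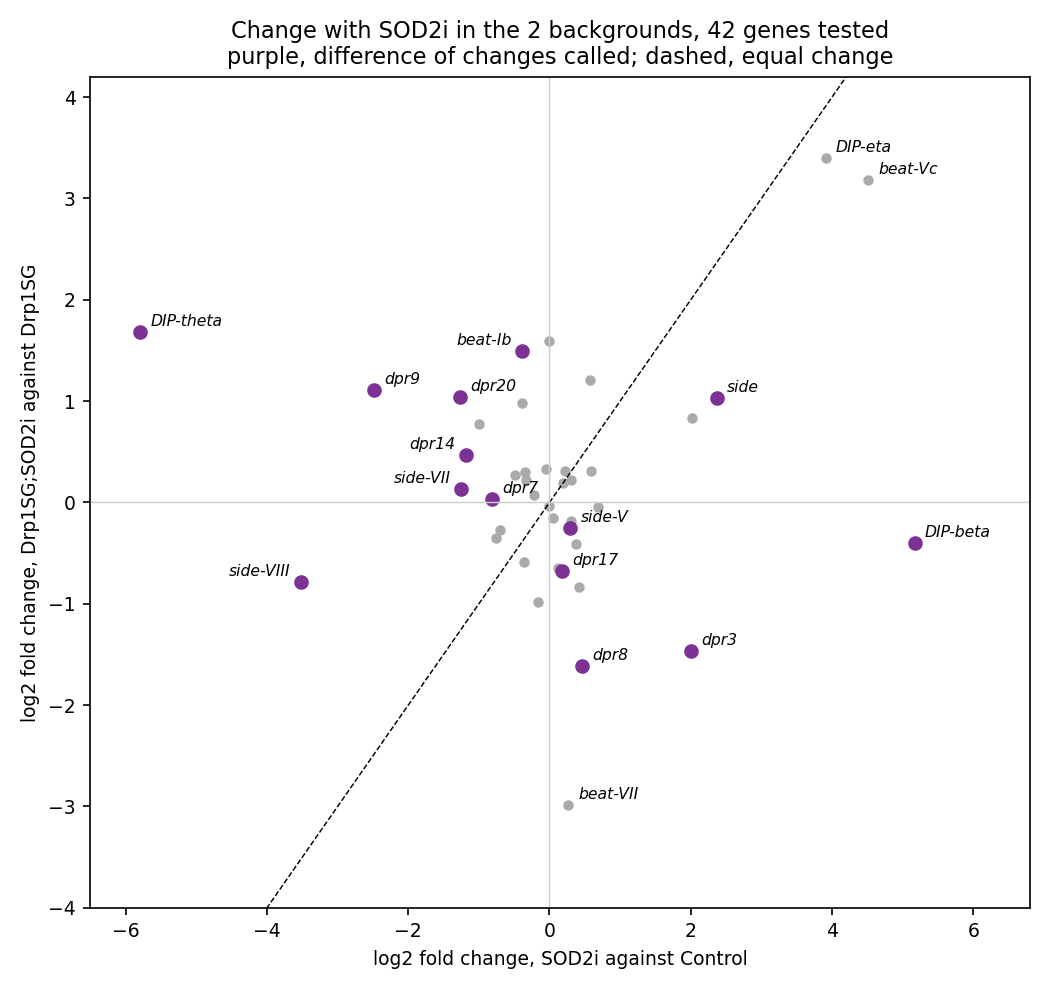
Log2 fold change of the double genotype over Drp1SG (y axis) against that of SOD2i over Control (x axis) for the 42 genes tested; purple marks the 14 with a called difference of changes, grey the others, and the dashed line equal change. DIP-eta and beat-Vc lie at upper right, DIP-eta nearer the line than beat-Vc, and DIP-theta, side-VIII, dpr9 and dpr20 lie far left of it.

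Of the 42 genes, 18 were called in none of the 6 comparisons, and 9 of these were detected. Among them DIP-lambda averaged 33.0 ± 11.0 CPM in the double genotype, 31.4 ± 1.6 CPM in Drp1SG and 27.9 ± 4.9 CPM in SOD2i, against 32.5 ± 4.5 CPM in Control. dpr2 averaged 40.4 ± 5.5, 45.8 ± 8.0 and 48.6 ± 4.5 CPM in the same mutant genotypes and 39.4 ± 6.0 CPM in Control. dpr19 averaged 14.6 ± 1.4, 12.5 ± 1.0 and 11.8 ± 2.7 CPM, against 14.9 ± 2.3 CPM in Control. Their log2 fold changes against Control ranged from -0.22 to 0.02 for DIP-lambda, 0.04 to 0.31 for dpr2 and -0.34 to -0.03 for dpr19, with standard errors of 0.15 to 0.20.

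DIP-epsilon averaged 8.64 ± 1.37 CPM in the double genotype, 7.58 ± 1.06 CPM in Drp1SG and 10.5 ± 1.1 CPM in SOD2i, against 9.18 ± 1.29 CPM in Control. DIP-alpha, the partner of Dpr6 and Dpr10, averaged 4.35 ± 0.50, 4.82 ± 0.48 and 4.94 ± 0.48 CPM in these genotypes and 4.77 ± 1.04 CPM in Control. dpr16, whose product also binds DIP-gamma, averaged 3.72 ± 0.42, 3.02 ± 0.45 and 3.01 ± 1.25 CPM, against 3.84 ± 0.29 CPM in Control. side-III was at 0.823 to 1.27, 1.42 to 1.60 and 1.36 to 1.70 CPM, against 0.857 to 1.71 CPM in Control. side-IV was at 0.652 to 1.24 CPM over all libraries, and antisense RNAs cover 67.5% of its exon bases in a later annotation. A p that misses the threshold does not show equal levels. The fitted changes of DIP-alpha (-0.13 to 0.05) and side-IV (-0.00 to 0.12) were smaller than their standard errors.

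Some known binding partners were present in different combinations, and the pairs named here are not a full list. DIP-alpha and dpr6 were detected in all 4 genotypes, while dpr10, the other well known partner of DIP-alpha, was at no more than 0.372 CPM in any library. DIP-beta was detected in the 3 mutant genotypes, with its partner dpr6 in all 4 and dpr8 in Drp1SG and SOD2i, and dpr9 in none. DIP-gamma was just under 1 CPM in Drp1SG, with dpr16 and dpr17 detected throughout and dpr11 and dpr15 in none. DIP-delta and dpr12 were both undetected. Of the Side and Beat pairs, side was detected in all genotypes and beat-Ia in none. side-IV was detected in Drp1SG and its partners beat-IIa and beat-IIb in none, and beat-Vc was detected with SOD2i while side-VI was in none.

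Other surface and guidance receptors gave a measure of what happened outside the 4 families. On a list of 47 such genes, 42 were tested. In the double genotype 1 was called higher and 7 lower than Control, in Drp1SG 4 higher and 8 lower, and in SOD2i 6 higher and 8 lower, with a median log2 fold change of -0.10, -0.07 and -0.05 (0.00, 0.01 and 0.00 over all tested genes). Fas3, an adhesion protein of septate junctions, was at 3.91 to 4.91 CPM in the double genotype, 11.8 to 18.9 CPM in Drp1SG and 9.05 to 12.4 CPM in SOD2i, against 2.82 to 3.38 CPM in Control. Con, a leucine-rich repeat adhesion protein of motor axons and muscles, was at 3.87 to 4.48, 4.06 to 4.84 and 3.64 to 6.27 CPM, against 9.81 to 13.3 CPM in Control, and was called lower in each.

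Markers of neurons, in which most of the 54 genes are best known, were called in both directions in SOD2i and only higher in the double genotype and Drp1SG. Of 16 such markers 13 were tested, and 3 were called higher than Control in the double genotype, 4 in Drp1SG and 3 in SOD2i, with 2 called lower in SOD2i. The median log2 fold change of the 13 was 0.32 in the double genotype, 0.19 in Drp1SG and 0.25 in SOD2i. The neuronal RNA-binding protein gene elav was at 0.0286 to 0.188 CPM in the double genotype, 0.421 to 0.936 CPM in Drp1SG and 1.18 to 1.43 CPM in SOD2i, against 0 to 0.0951 CPM in Control. brp, of the presynaptic active zone, was at 3.09 to 3.80, 2.31 to 3.73 and 6.31 to 7.09 CPM, against 1.33 to 1.68 CPM in Control. fne, which encodes a neuronal RNA-binding protein, was at 4.77 to 5.37 CPM in the double genotype, 4.16 to 5.33 CPM in Drp1SG and 1.39 to 1.70 CPM in SOD2i, against 0.945 to 1.75 CPM in Control. The genes called lower in SOD2i were Rbp6, at 1.28 to 1.84 CPM in SOD2i against 2.80 to 3.31 CPM in Control, and Syt1, the synaptic vesicle calcium sensor, at 0.152 to 0.312 CPM in SOD2i against 0.753 to 0.856 CPM in Control. The summed level of the list was 163 to 228 CPM in the double genotype, 195 to 248 CPM in Drp1SG and 176 to 264 CPM in SOD2i, against 149 to 251 CPM in Control, so these ranges overlapped. Most of this sum was unc-13, which averaged 168, 180 and 188 CPM in these genotypes and 158 CPM in Control. The overlap therefore says little about the other markers. Syx1A and VAChT were at 0 in every library. Of 8 muscle markers 7 were tested, with 2, 1 and 1 called higher in the double genotype, Drp1SG and SOD2i. Those called were wupA and Mhc in the double genotype (log2 fold changes of 3.26 and 2.54), wupA in Drp1SG (2.06) and Msp300 in SOD2i (0.69). The libraries of the double genotype were uneven, at 1.16 to 5.71 CPM for wupA and 2.29 to 11.9 CPM for Mhc. Control was at 0.148 to 0.483 CPM for wupA and 0.768 to 1.49 CPM for Mhc. The median log2 fold change of the 7 was 2.54 in the double genotype, 0.44 in Drp1SG and -0.80 in SOD2i. The summed level of the list was 158 to 170, 131 to 147 and 143 to 160 CPM in the 3 mutant genotypes and 110 to 132 CPM in Control, and Mef2 and Msp300 made up most of it, with Msp300 averaging 87.6 CPM in SOD2i against 54.5 CPM in Control. Of 7 hemocyte markers 6 were tested, and 3, 3 and 1 were called higher in the same order and 1 lower in SOD2i. All 7 pole cell markers were tested, and 4 were called higher in Drp1SG. Of 12 blastoderm and ventral furrow markers 8 were tested, with 1 and 3 called lower in the double genotype and Drp1SG and 1 higher in SOD2i. Of 13 neuroblast markers 7 were tested, with 1 called higher in Drp1SG and 1 in SOD2i. Of 10 follicle cell markers only 2 were tested, with 1 called higher in the double genotype and 1 in Drp1SG. Of 5 glial markers 4 were tested, and edgeR called none. Over all tested genes the share called was 8.91% in the double genotype, 18.6% in Drp1SG and 23.2% in SOD2i. The part of these lists in the changes above was not tested.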

How the data were processed

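Raw counts of reads, as the authors deposited them, were the values tested. The authors' normalized columns hold a signal, each being the raw column times 1 constant, and served to check the columns. Their deposited tables also give a log2 fold change and a p-value per gene from DESeq2 for each genotype against Control. Per the submitters' processing notes DESeq2, featureCounts 1.5.2, HISAT2 2.1.0, Bowtie2 2.2.4 and Trimmomatic were used, in roles that are not described. The genome build, the annotation and any use of strand are not given in the sources used here, so no coordinates are printed, and reads of overlapping genes may have gone to either. Gene order came from RefSeq (Release 6 plus ISO1 MT), matched by gene identifier, and exon lengths and overlaps from Ensembl release 115, matched by gene symbol.

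The tests used edgeR 4.0.16 in R 4.3.3: filterByExpr, TMM scaling and a quasi-likelihood fit of all 12 libraries with a mean per genotype, on 9863 genes. Calls were made in 6 comparisons at p under 0.05 after Benjamini-Hochberg adjustment over these genes. CPM use TMM-scaled totals, and standard errors are the log2 fold change divided by the square root of F. On simulated counts with known changes the procedure was tested before use. Alternatives were other scalings (DESeq2 1.42.0 size factors, upper quartile), limma 3.58.1 with voom, the Wald test of DESeq2, no filter on low counts, a minimum of 1 CPM in any 3 libraries, only the genotypes compared, the replicate number as a block, and leaving out each library. Where 2 libraries of a genotype were left, the spread was pooled over genotypes.

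The members, the gene lists and the tests were chosen with earlier results of these data known. Every member detected or called is named, with at most 4 genes of each other list by smallest adjusted p, and Sod2 and Drp1. Kr, nullo, slam, twi, Syt1, Syx1A, VAChT, unc-13 and Mef2 fall outside this rule and were named after their values were seen. Of counts of 1 to 20 reads, 74.7% to 76.8% per library were even, for a reason not stated, and low counts may then carry more error than their number implies. A count of 3, the floor used, is 0.0314 to 0.0499 CPM.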

Additional observations from a re-analysis of the deposited data

Results flagged for a closer look

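The change with SOD2i in the Drp1SG background differed from that in the Control background for 14 genes, by the edgeR interaction test, given here as the difference of log2 fold changes. Sod2 itself also fell less in the Drp1SG background (0.78, adjusted p = 0.0414, edgeR), so background and size of that fall cannot be told apart. Values above 0 were found for DIP-theta (7.47), dpr9 (3.59), side-VIII (2.73), dpr20 (2.31), beat-Ib (1.89), dpr14 (1.65), side-VII (1.38) and dpr7 (0.85). Values below 0 were found for DIP-beta (-5.57), dpr3 (-3.47), dpr8 (-2.08), side (-1.34), dpr17 (-0.85) and side-V (-0.54).

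For DIP-beta the call was lost in 11 alternatives, DESeq2 gave no adjusted p, and without SOD2i replicate 3 the difference was -1.77 and still called. For side-V it was lost in 13, for dpr7 in 8 and for dpr17 in 6. For DIP-theta, dpr9, side-VIII, dpr20, dpr14, side-VII, beat-Ib, dpr3 and dpr8 it held in every alternative run. DIP-theta, dpr9 and side-VIII were already low in both single genotypes, which left little room for a second fall. For these genes, holding in every alternative adds no support for a difference between the backgrounds.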

How the results depend on the processing

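Of 72 calls of single genes over the 6 comparisons, 44 held under every alternative and 28 were lost under at least 1, none with a change of direction. With each library left out in turn, the genes called against Control numbered 7 to 11 in the double genotype, 9 to 14 in Drp1SG and 14 to 17 in SOD2i. The double genotype gave 5 to 11 calls against Drp1SG and 4 to 12 against SOD2i, and the interaction 9 to 14. The number detected was 27 to 29. The other alternatives left each count of calls within 1.5 times its value. With a threshold of 0.5 CPM 35 genes were detected, with 2 CPM 20, and with 1 CPM in every library of a genotype 25. The replicate block gave 10, 11 and 15 calls against Control in the double genotype, Drp1SG and SOD2i, 8 and 8 in the double genotype against Drp1SG and SOD2i, and 12 in the interaction. Replicate numbers share no stated origin, and deviations of same-numbered libraries correlated at -0.267 to 0.216, so the numbers do not pair the samples. The DESeq2 Wald test gave no adjusted p for DIP-beta, which is not counted as a lost call. Depth limits the genes under 1 CPM, where a library holds fewer than 60.1 to 95.7 reads.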
